A study of Mus musculus with 64 samples.

Results

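Microglia sorted from the brains of 14-month-old female mice were compared with those of 3-month-old female mice, all given PBS, over every gene of the deposited expression table. The comparison holds 9 of the 64 libraries of the series, 5 at 14 months and 4 at 3 months, chosen by their labels alone. All animals were wild-type C57BL/6J females, the brain was taken without the cerebellum, and live cells (7-AAD-) with CD11b and low CD45 were collected by flow cytometry for RNA-seq. The brains were first digested with papain, and the paper cautions that warm enzymatic digestion may reactivate microglia ex vivo. The part of such handling in the results was not tested. Each library carries its own replicate number. The p-values of this comparison rest on the spread between libraries of the same age. That spread was pooled over all female PBS ages, not over these 9 libraries alone. The same PBS mice were the vehicle controls of an experiment in which other 14- and 3-month-old females received lipopolysaccharide (LPS), a bacterial membrane component that triggers acute inflammation, by intraperitoneal injection shortly before collection. Vehicle treatment is thus shared by both ages.

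Microglia are the resident macrophages of the brain parenchyma. In the healthy adult they are recognised by a homeostatic program that includes the purine receptors P2ry12 and P2ry13 and the fractalkine receptor Cx3cr1. Activated microglia can lower that program and make cytokines, chemokines, interferon-induced proteins and secreted factors such as osteopontin (Spp1), and such states are known from ageing brains and from neurodegeneration models.

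The deposited values are FPKM (fragments per kilobase of transcript, scaled to the mapped reads) that were adjusted for batch and rounded, so read depth is unknown and a value is a level per transcript length. The values of a library summed to 438057 to 502806 at 14 months and to 496013 to 516571 at 3 months over 5647 genes. The 14-month libraries were the more variable group. The median SD of a gene on the log2(value + 1) scale was 0.30 at 14 months and 0.17 at 3 months. All 6 defining microglial markers were present in every library, and their summed value was 13057 to 15608 at 14 months against 19400 to 20949 at 3 months, without overlap.

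With limma on log2(value + 1), and with a gene called where its adjusted p was below 0.05 and its fold above 1.5, 187 of 5647 genes (3.31%) differed between 14 and 3 months, 68 (1.20%) higher and 119 (2.11%) lower at 14 months. The median gene stood at -0.19 on the log2 scale, and 28.2% of all genes had a positive difference. After median-ratio scaling, which brings the typical gene of every library to one level and moved the median by 0.17 to -0.02, 155 genes (2.74%) were called, 122 (2.16%) higher and 33 (0.584%) lower. Higher genes thus made up 36.4% of the calls without and 78.7% with scaling. All 68 higher genes and 33 of the 119 lower ones were called both ways, 101 genes in all (1.79%). The other 86 lower genes kept a negative difference after scaling but were not called, with a median of -0.60 after scaling and -0.77 without it. Among the 187 genes, the libraries of the 2 ages did not overlap in 173, compared with 14.5% of all genes. The calls were made on the same 9 libraries, so this follows in part from the selection. The number of called genes depended on the libraries used. Without 3-month library 1, 2, 3 or 4 it was 61, 62, 63 or 57, a similar number whichever was left out. Without 14-month library 4 it was 107, and without 14-month library 1, 2, 3 or 5 it was 188, 186, 222 or 187. No called gene changed sign. Of the 101 genes called both ways, 37 (19 higher and 18 lower) were called without scaling in each of the 9 fits that left out 1 library. Of these, 24 (19 higher and 5 lower) were also called in each of the 9 with scaling. Counts of these 9 fits for single genes are without scaling unless scaling is named.

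**Figure D1:**
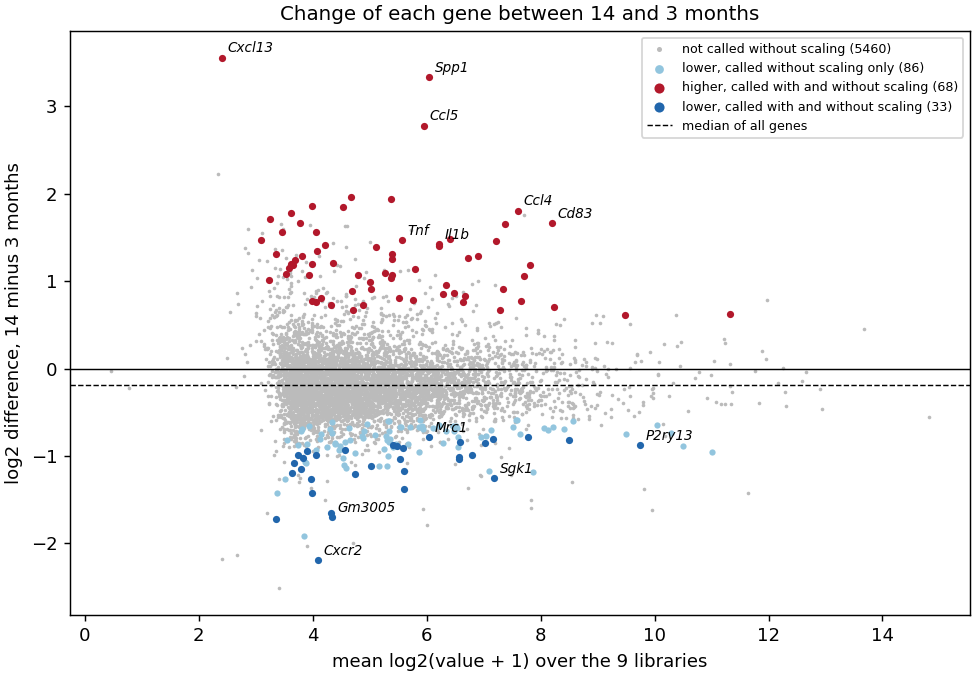
Change of each of the 5647 genes (y axis, log2 difference of 14 minus 3 months without scaling) against its mean log2(value + 1) over the 9 libraries (x axis). Each point is a gene coloured by its call, and the dashed line is the median of all genes at -0.19; all 68 genes called higher (red) passed with and without scaling, whereas 86 of the genes called lower (light blue) passed only without it.

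Cytokine and chemokine genes held the most genes that rose without scaling of any list described here, and as many as the interferon list (16) with it. Of 43 measured cytokines, chemokines and NF-kB targets, 12 rose and 1 fell at 14 months, against 1.20% of all genes called higher and 2.11% called lower, with a median log2 difference of 0.70 against -0.19 for all genes. After scaling 16 rose and none fell, against 2.16% and 0.584% of all genes, with a median of 0.87 against -0.02.

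Ccl5, a chemokine that attracts T cells and monocytes, stood at 163, 70, 175, 223 and 145 at 14 months, against 21, 24, 19 and 18 at 3 months. The lowest 14-month library was well above the highest 3-month one. The log2 difference was 2.77 ± 0.36 (SE), 6.84-fold on the log2(value + 1) scale (limma, adjusted p = 0.000212), and 7.69-fold after scaling. Ccl4, a chemokine for monocytes and T cells, had values of 511, 208, 535, 161 and 475 at 14 months, against 78, 77, 101 and 138 at 3 months. Its rise was 3.50-fold (limma, adjusted p = 0.00734), without overlap. Ccl3, a related chemokine, had values of 300, 171, 345, 116 and 328 at 14 months, against 64, 64, 86 and 139 at 3 months. Here 14-month library 4 lay below 3-month library 4, and the rise was 2.75-fold (limma, adjusted p = 0.0181), called in 6 of the 9 fits that left out 1 library. Libraries 1, 3 and 5 of the 14-month group were the high ones for both Ccl3 and Ccl4. In GRCm38 (mm10), GENCODE M21 places all 3 genes on chromosome 11, Ccl5 at 83525778 to 83530518, Ccl3 at 83647844 to 83649355 and Ccl4 at 83662584 to 83664683.

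Tnf and Il1b, classical proinflammatory cytokines, also rose. Tnf stood at 87, 47, 62, 77 and 111 at 14 months, against 24, 28, 25 and 27 at 3 months (2.77-fold, limma adjusted p = 0.00392). Il1b stood at 132, 85, 111, 116 and 139 at 14 months, against 59, 32, 39 and 43 at 3 months (2.68-fold, limma adjusted p = 0.00401). Neither gene had a 14-month library within the 3-month range. Il1rn, which blocks the IL-1 receptor, had values of 5 to 15 at 14 months against 2 to 4 at 3 months, without overlap, yet did not pass the test (limma, adjusted p = 0.137).

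Cxcl13, a B cell attractant, had the largest log2 difference of all genes. It was listed at 3, 6, 69, 10 and 45 at 14 months, against 0, 2, 0 and 0.1 at 3 months. Libraries 3 and 5 of the 14-month group carried most of the signal. The log2 difference of 3.55 ± 0.72 depends on the pseudocount of 1, because the 3-month values lie at or near 0. Cxcl16, a membrane-bound chemokine, was 135, 78, 139, 97 and 100 at 14 months, against 55, 47, 63 and 55 at 3 months (1.94-fold, limma adjusted p = 0.00627). Ccl24, an eosinophil chemokine, was the member of the list that fell without scaling, at 13, 22, 16, 12 and 18 at 14 months, against 25, 29, 36 and 46 at 3 months, and it missed the threshold after scaling (limma, adjusted p = 0.0924). Ccl24 was called in 3 of the 9 fits without a library, with an adjusted p of up to 0.136 (limma). Ccl2, Ccl7, Cxcl10 and Bcl2a1a passed as higher only after scaling.

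Genes known to be induced by NF-kB, including an inhibitor of the pathway, were among those that rose. Tnfaip3 (A20), that inhibitor, had values of 67, 40, 74, 56 and 79 at 14 months, against 23, 23, 24 and 27 at 3 months (2.48-fold, limma adjusted p = 0.00401). Icam1, an adhesion molecule, had values of 232, 142, 94, 218 and 134 at 14 months, against 65, 64, 67 and 61 at 3 months (2.40-fold, limma adjusted p = 0.0113). Cd83, an activation marker, had values of 551, 439, 875, 352 and 380 at 14 months, against 146, 151, 158 and 163 at 3 months (3.16-fold, limma adjusted p = 0.00329). In all 3 genes every 14-month library exceeded every 3-month library, and the 3-month libraries lay close together. Nfkbia, which retains NF-kB in the cytoplasm, had values of 458 to 973 at 14 months against 385 to 497 at 3 months and did not pass (limma, adjusted p = 0.108). Socs3, an inhibitor of cytokine signalling, was at 272 in 14-month library 5 and 30 in library 3, against 22 to 36 at 3 months, and did not pass (limma, adjusted p = 0.0645).

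**Figure D2:**
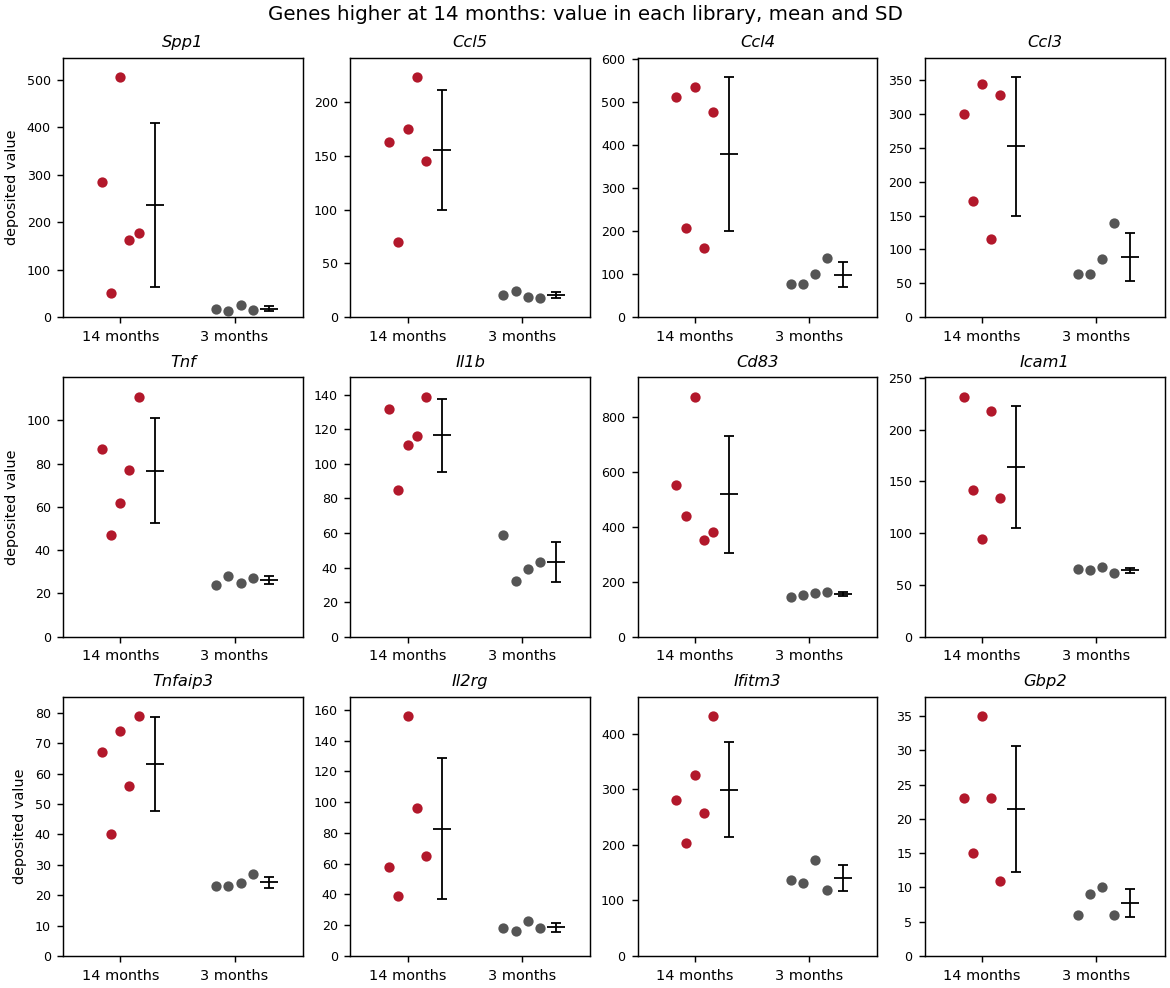
Deposited value (y axis, batch-adjusted FPKM, rounded) of 12 genes called higher, in each of the 5 libraries of 14 months (left, red) and the 4 of 3 months (right, grey). The horizontal marks and bars are the mean and SD; among these 12 genes only Ccl3 has a 14-month point (116) below the highest 3-month point (139).

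Receptors and a costimulatory ligand rose as well. Tnfsf9 (4-1BB ligand), which costimulates T cells, was 39, 38, 61, 38 and 56 at 14 months, against 9, 12, 13 and 10 at 3 months (3.90-fold, limma adjusted p = 0.00592). Gpr84, a receptor for medium-chain fatty acids, was 351, 149, 207, 384 and 374 at 14 months, against 89, 86, 95 and 77 at 3 months (3.15-fold, limma adjusted p = 0.00627). Neither overlapped between the ages. C5ar1, the receptor of the complement fragment C5a, was 189 to 654 at 14 months against 134 to 166 at 3 months (2.27-fold, limma adjusted p = 0.0281). It was the only called gene of 13 measured complement genes, against 1.20% of all genes called higher. Hcar2, a receptor for hydroxybutyrate and niacin, was 8 to 27 at 14 months against 3 to 7 at 3 months (2.95-fold, limma adjusted p = 0.00738). Leaving out 1 library at a time, C5ar1 was called in 3 of the 9 fits and Hcar2 in 8. None of the 19 measured Toll-like receptors and adaptors was called, with or without scaling.

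Genes of the disease-associated program of microglia, known from mouse models of Alzheimer's disease, moved in part. Of 32 measured members, 7 rose and none fell (8 and none after scaling), against 1.20% of all genes called higher (2.16% after scaling). Their median log2 difference was 0.20, or 0.38 after scaling, against -0.19 and -0.02 for all genes. Spp1 stood at 285, 50, 505, 162 and 177 at 14 months, against 17, 14, 25 and 15 at 3 months. Library 3 of the 14-month group was highest and library 2 lowest, and even that one was above all 3-month libraries. Its log2 difference was 3.33 ± 0.59 (limma, adjusted p = 0.00334), 10.1-fold without and 11.3-fold with scaling. Cst7 (cystatin F), an inhibitor of cysteine proteases, was 36, 15, 40, 20 and 38 at 14 months, against 8, 9, 13 and 10 at 3 months (2.66-fold, limma adjusted p = 0.0456). Cst7 was called in 1 of the 9 fits that left out 1 library, with an adjusted p of up to 0.123 (limma). Fth1, the ferritin heavy chain that stores iron, was 3139, 2590, 3578, 2986 and 3257 at 14 months, against 1956, 2030, 1939 and 2083 at 3 months (1.55-fold, limma adjusted p = 0.0113). The 14-month values of Fth1 were narrow compared with those of Spp1. Cd52, a surface glycoprotein, and Lilrb4a, an inhibitory receptor, rose by log2 differences of 0.70 and 1.14. Of the 9 fits without a library, Fth1 was called in 8, Cd52 in 1 and Lilrb4a in 4, and Spp1 in all 9.

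Other genes of the same program did not pass. Apoe, a lipid carrier, was 2755, 1376, 10040, 2065 and 4478 at 14 months, against 4174, 3873, 4661 and 4260 at 3 months, so the 3-month range lay inside the 14-month one (limma, adjusted p = 0.556). Trem2, the lipid-sensing receptor upstream of the program, was 800 to 1151 at 14 months against 1093 to 1238 at 3 months (limma, adjusted p = 0.137). Axl, a receptor for apoptotic cells, was 47, 18, 22, 30 and 43 at 14 months, against 19, 12, 19 and 17 at 3 months (limma, adjusted p = 0.112), with 14-month library 2 inside the 3-month range. Clec7a, a receptor for beta-glucan, and Lpl, a lipase, overlapped between the ages (limma, adjusted p = 0.606 and 0.631).

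Interferon-stimulated genes had the highest median of the lists with 10 or more measured members. Of 52 measured, 8 rose and none fell, against 1.20% of all genes called higher, with a median log2 difference of 0.76. After scaling 16 rose and none fell, against 2.16% of all genes called higher, with a median of 0.92. Ifitm3, a membrane protein that blocks viral entry, was 280, 203, 325, 258 and 432 at 14 months, against 137, 131, 173 and 119 at 3 months (2.09-fold, limma adjusted p = 0.0307). Ifih1 (MDA5), a cytosolic sensor of double-stranded RNA, was 15, 22, 14, 13 and 18 at 14 months, against 7, 6, 7 and 7 at 3 months (2.21-fold, limma adjusted p = 0.0181). Both were without overlap. Gbp2, an interferon-induced GTPase, was 11 to 35 at 14 months against 6 to 10 at 3 months (2.44-fold, limma adjusted p = 0.0193). Tgtp2, another such GTPase, was 13 to 40 at 14 months against 7 to 12 at 3 months (2.54-fold, limma adjusted p = 0.0332). Zbp1, a nucleic acid sensor, was 17, 5, 14, 17 and 14 at 14 months, against 4, 6, 3 and 3 at 3 months, so that 14-month library 2 lay within the 3-month range. With 1 library left out, Gbp2 was called in 7 of the 9 fits, Ifih1 and Zbp1 in 5, Ifitm3 in 4 and Tgtp2 in 2. Ifi204, a DNA sensor, overlapped between the ages and was not called (limma, adjusted p = 0.207).

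The promoters of called interferon-stimulated genes are shown because this response is known to act through a short element in them. RefSeq (GRCm38.p6) promoter windows, 250 bases before to 50 after each gene's start, were matched by symbol for 54 of the 68 genes that rose and 28 of the 33 that fell with and without scaling. The interferon response core, GAAANNGAA on either strand, was in 10 of the 54 (18.5%) and in 2 of the 28 (7.14%), against 9.76% of the 27025 genes of the table and 9.47% of the 4571 genes measured here that matched it. Of 6 matched interferon-stimulated genes that rose, 4 held it, namely Gbp2, Ifih1, Ifitm3 and Tgtp2. The 250 bases before the start are printed for 3 of them, 5′ to 3′ on the gene's strand, with the matched letters in capitals, which lie 50 bases (Gbp2), 104 bases (Ifih1) and 62 bases (Tgtp2) before the start. The windows are chr3:142620413-142620662 on the plus strand for Gbp2, chr2:62646256-62646505 on the minus strand for Ifih1 and chr11:49064213-49064462 on the minus strand for Tgtp2.
Gbp2: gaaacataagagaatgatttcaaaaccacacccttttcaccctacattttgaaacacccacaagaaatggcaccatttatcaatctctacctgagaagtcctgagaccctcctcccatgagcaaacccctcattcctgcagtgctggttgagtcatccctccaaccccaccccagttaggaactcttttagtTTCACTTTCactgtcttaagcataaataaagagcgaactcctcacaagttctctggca
Ifih1: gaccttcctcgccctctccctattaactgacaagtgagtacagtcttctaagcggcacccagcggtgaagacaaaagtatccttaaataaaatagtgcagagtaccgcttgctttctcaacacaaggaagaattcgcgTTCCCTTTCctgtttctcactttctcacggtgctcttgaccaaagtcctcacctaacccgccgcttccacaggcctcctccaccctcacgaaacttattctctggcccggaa
Tgtp2: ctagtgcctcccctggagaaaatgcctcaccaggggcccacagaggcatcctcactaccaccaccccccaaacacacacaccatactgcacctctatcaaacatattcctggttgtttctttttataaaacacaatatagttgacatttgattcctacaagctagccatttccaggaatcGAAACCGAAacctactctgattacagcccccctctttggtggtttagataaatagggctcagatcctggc

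The AP-1 letters TGANTCA were in 7 of the 54 and in 0 of the 28, against 8.97% of all genes and 6.10% of the measured ones. A kappaB motif, searched after the data were seen, was in 7 of the 54 and 2 of the 28, against 5.14% and 6.30%. Tnfaip3 held 2 kappaB matches, 116 and 3 bases before its start on the minus strand of chr10:19015411-19015660, shown in capitals.
Tnfaip3: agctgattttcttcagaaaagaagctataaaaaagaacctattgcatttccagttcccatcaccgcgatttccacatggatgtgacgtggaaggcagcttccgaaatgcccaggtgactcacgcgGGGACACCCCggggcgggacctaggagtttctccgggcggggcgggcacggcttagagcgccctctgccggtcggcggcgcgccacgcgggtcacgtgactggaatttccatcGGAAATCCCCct

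The other motifs were counted the same way on both strands. The heat shock element GAANNTTC was in 3 of 54 and 3 of 28 (9.04% of all and 7.59% of measured genes), the E-box CACGTG in 4 and 6 (8.09% and 13.3%), and the STAT letters TTCNNNGAA in 6 and 2 (9.55% and 8.55%). The PU.1 core GAGGAAGT was in 3 and 0 (3.69% and 4.62%) and the CRE TGACGTCA in 2 and 0 (2.03% and 3.89%). Matches of the interferon, STAT and heat shock letters can overlap. A match describes the letters only and was not tested as a site.

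Few genes of antigen presentation were called without scaling. Of 21 measured MHC class I genes 1 rose without scaling and 4 with it, against 1.20% and 2.16% of all genes called higher. H2-Q7, a nonclassical class I gene, rose both ways, at 22, 10, 12, 17 and 13 at 14 months, against 5, 7, 4 and 5 at 3 months (2.48-fold, limma adjusted p = 0.00654). The classical genes H2-K1 (544 to 716 at 14 months against 399 to 481 at 3 months) and H2-D1 (573 to 1090 at 14 months against 519 to 708 at 3 months) had log2 differences of 0.52 and 0.51 without scaling and were called after it, at 0.69 and 0.69. H2-T22 was also called only after scaling. With scaling H2-K1 was called in all 9 fits that left out 1 library, but H2-D1 in 2. B2m, the class I light chain, was not called (limma, adjusted p = 0.295). H2 genes are close paralogs, so reads may have been shared between them. Of 11 measured class II genes none was called without scaling and 2 were called higher with it, against 2.16% of all genes. Cd74, the invariant chain, was at 3012, 5801, 5813, 5929 and 5757 at 14 months, against 3238, 2396, 3772 and 2662 at 3 months, so that 4 of the 5 older mice stood above the 3-month range and library 1 lay inside it. It missed the threshold without scaling (limma, adjusted p = 0.0504) and passed with it (0.0207), whereas H2-Ab1, a class II chain, was not called either way (0.359 and 0.233).

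Several further genes rose. Cdkn1a (p21), an inhibitor of the cell cycle, was 82, 57, 52, 36 and 69 at 14 months, against 28, 25, 26 and 28 at 3 months (2.10-fold, limma adjusted p = 0.0229). Ccnd2, a G1 cyclin, was 13 to 24 at 14 months against 6 to 8 at 3 months (2.37-fold, limma adjusted p = 0.00401). Of 16 measured cell cycle genes 2 rose, Cdkn1a and Ccnd2, against 1.20% of all genes called higher, and the other 14 were not called. Id2, an inhibitor of basic helix-loop-helix factors, was 134, 91, 118, 137 and 93 at 14 months, against 42, 42, 40 and 45 at 3 months (2.64-fold, limma adjusted p = 0.00334). Mt1, a metallothionein, was 119, 195, 316, 119 and 196 at 14 months, against 70, 64, 78 and 77 at 3 months (2.43-fold, limma adjusted p = 0.0327), with 14-month library 3 highest. Plk3, a stress-activated kinase, was 23 to 50 at 14 months against 9 to 13 at 3 months (3.60-fold, limma adjusted p = 0.0361). Arid5a, an RNA-binding protein, was 10 to 31 at 14 months against 4 to 6 at 3 months (3.42-fold, limma adjusted p = 0.0345), and Itga5, the fibronectin receptor subunit, 10 to 26 at 14 months against 3 to 5 at 3 months (3.27-fold, 0.00392). None of these last 3 overlapped between the ages. Ccnd2, Id2 and Itga5 were called in all 9 fits that left out 1 library, but Cdkn1a in 4, Mt1 and Arid5a in 2 and Plk3 in 1.

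Homeostatic microglial genes were called lower at 14 months to an extent that depended on scaling. Of 36 measured, 9 fell and none rose without scaling, against 2.11% of all genes called lower. After scaling 2 fell and none rose, against 0.584% of all genes called lower. The median log2 difference was -0.44, or -0.27 after scaling, against -0.19 and -0.02 for all genes. In bulk RNA, fewer cells of a type and less RNA of a gene per cell cannot be told apart.

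P2ry13 was 913, 654, 568, 637 and 550 at 14 months, against 1233, 1221, 1210 and 1133 at 3 months. It was 1.83-fold lower (limma, adjusted p = 0.0144) and 1.63-fold lower after scaling (0.0404), with no overlap. P2ry12, which guides process movement towards ATP, was 1316, 2153, 2164, 1466 and 940 at 14 months, against 2952, 3283, 2896 and 2802 at 3 months. Its 1.94-fold decrease passed without scaling (limma, adjusted p = 0.0229) but not with it (0.0567). Without scaling P2ry13 was called in 8 of the 9 fits that left out 1 library and P2ry12 in 4. With scaling P2ry13 was called in 1 of the 9 and P2ry12 in 2. Both genes lie on chromosome 3, P2ry13 at 59207892 to 59210882 and P2ry12 at 59216272 to 59262871.

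Bin1, an endocytic adaptor, was 206, 162, 145, 151 and 202 at 14 months, against 310, 271, 279 and 324 at 3 months, 1.72-fold lower (limma, adjusted p = 0.00369, and 0.0178 after scaling). Cx3cr1 was 1574, 1048, 563, 1171 and 1525 at 14 months, against 2274, 2057, 1897 and 1961 at 3 months. Library 3 was the lowest at 14 months, and the 1.84-fold decrease passed only without scaling (limma, adjusted p = 0.0285 without and 0.0911 with). Siglech, a sialic acid-binding lectin, was 533, 523, 506, 670 and 654 at 14 months, against 934, 920, 940 and 1061 at 3 months. It was 1.68-fold lower without scaling and 1.49-fold lower with it, under the fold limit at an adjusted p of 0.0343 (limma). Mef2c, a transcription factor of the homeostatic state, was 80 to 141 at 14 months against 172 to 192 at 3 months and passed only without scaling (limma, adjusted p = 0.0223 without and 0.0911 with). Without scaling Bin1 and Siglech were called in all 9 fits that left out 1 library, Cx3cr1 in 5 and Mef2c in 4. With scaling Bin1 was called in 5 of the 9, Siglech in 2 and Cx3cr1 and Mef2c in 0.

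Several other markers did not pass. Sall1, a transcription factor of microglial identity, was 22 to 106 at 14 months against 129 to 147 at 3 months, without overlap (limma, adjusted p = 0.0713). Fcrls, an Fc receptor-like gene, was 1128 to 1516 at 14 months against 1819 to 1880 at 3 months, with a log2 difference of -0.49 that was under the fold limit. Tmem119, a surface marker, and Csf1r, the receptor on which microglial survival depends, overlapped between the ages (limma, adjusted p = 0.0949 and 0.109), with log2 differences of -0.38 and -0.40 without scaling and -0.20 and -0.23 after it.

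**Figure D3:**
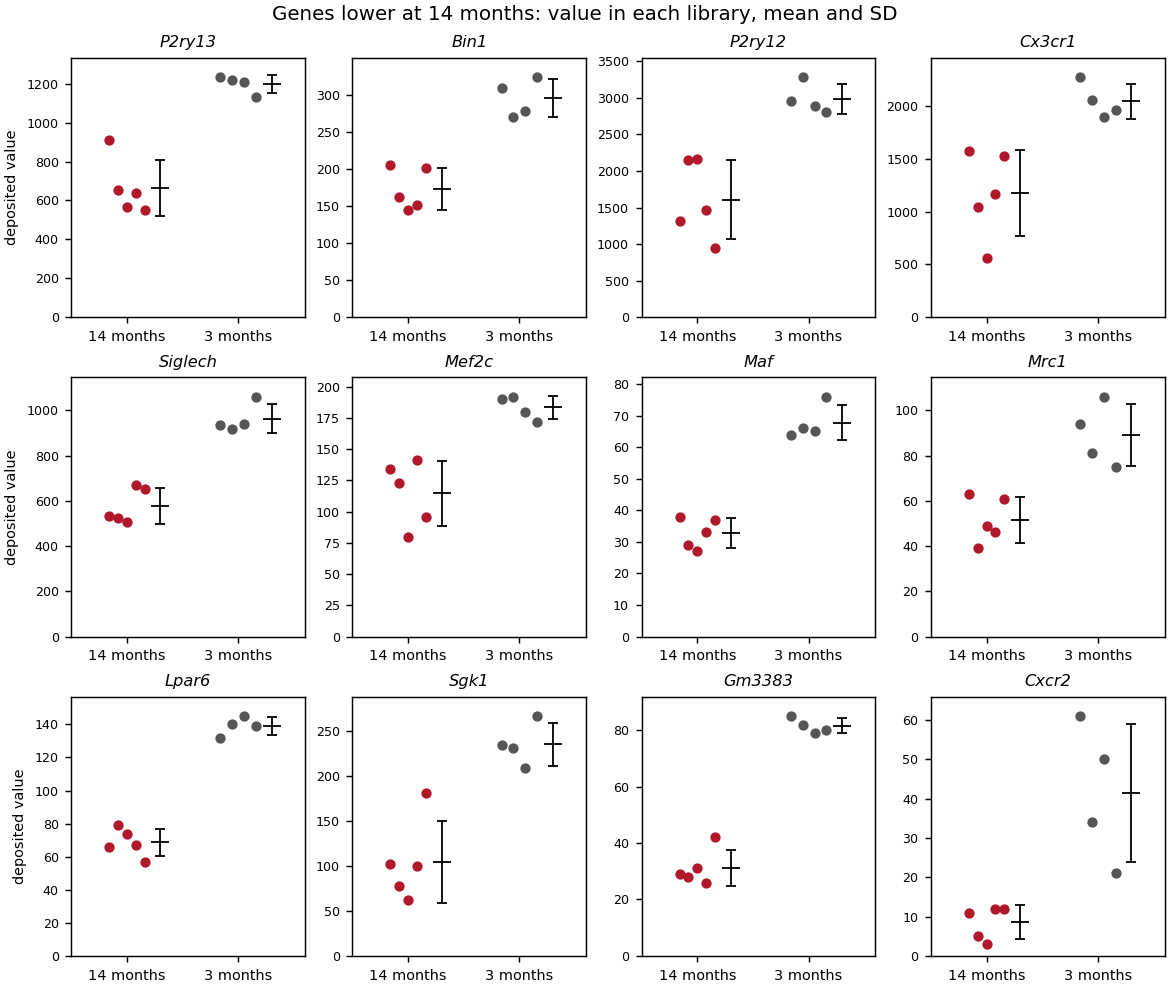
Deposited value (y axis, batch-adjusted FPKM, rounded) of 12 genes called lower without scaling, in each of the 5 libraries of 14 months (left, red) and the 4 of 3 months (right, grey), with mean and SD. No 14-month point reaches the 3-month range in any of the 12 panels; P2ry12, Cx3cr1, Siglech and Mef2c were not called after scaling.

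One block of neighbouring genes stood among those that fell. Of 7 measured genes on chromosome 14 before position 8000000, 6 fell without scaling and 4 with it too, while the chromosome as a whole had 14 genes called lower of 198 measured. Gm3383 (5607620 to 5807982) was 29, 28, 31, 26 and 42 at 14 months, against 85, 82, 79 and 80 at 3 months, 2.60-fold lower (limma, adjusted p = 0.00138). Gm3005 (3428103 to 3594220) was 13, 8, 9, 8 and 21 at 14 months, against 46, 34, 35 and 38 at 3 months, 3.25-fold lower (limma, adjusted p = 0.00183). The locus 2610042L04Rik (4334763 to 4354688) was 12, 8, 17, 10 and 10 at 14 months, against 35, 41, 33 and 39 at 3 months, 3.14-fold lower (limma, adjusted p = 0.00597). These genes belong to a family of repeated copies, so reads could have been shared among them and the calls may not be independent. The block was picked out after its values were seen.

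Among single genes, Sgk1, a serum- and glucocorticoid-induced kinase, was 102, 78, 62, 100 and 181 at 14 months, against 235, 231, 209 and 267 at 3 months (2.38-fold lower, limma adjusted p = 0.0129). Lpar6, a lysophosphatidic acid receptor, was 66, 79, 74, 67 and 57 at 14 months, against 132, 140, 145 and 139 at 3 months (2.02-fold lower, limma adjusted p = 0.00205). Lpar6 was called, with and without scaling, in each of the 9 fits that left out 1 library. Gpr183, a receptor for oxysterols, was 39 to 96 at 14 months against 133 to 147 at 3 months (2.05-fold lower, limma adjusted p = 0.0113), and Mapk14 (p38), a stress kinase, was 13 to 28 at 14 months against 42 to 58 at 3 months (2.17-fold lower, 0.0124). Tia1, a stress granule protein, was 8, 7, 16, 11 and 8 at 14 months, against 23, 26, 26 and 23 at 3 months (2.41-fold lower, limma adjusted p = 0.00334). Maf, a transcription factor of macrophages, was 27 to 38 at 14 months against 64 to 76 at 3 months (2.05-fold lower, limma adjusted p = 0.0128). None of these 6 genes overlapped between the ages. Gpr183 and Tia1 were also called in all 9 fits without scaling, and Sgk1, Mapk14 and Maf in 8. With scaling Tia1 was called in all 9, Mapk14 in 4, Gpr183 in 3, Maf in 2 and Sgk1 in 1.

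Eif2s3y, a Y-linked gene, was listed above 0 in these females, at 10, 9, 10, 8 and 9 at 14 months, against 41, 30, 24 and 16 at 3 months (2.68-fold lower, limma adjusted p = 0.0134). Its X-linked homologue Eif2s3x, with which it can share reads, was 13 to 31 at 14 months against 17 to 24 at 3 months and was not called. The source of the Eif2s3y values was not tested. The change is uncertain, with a call in 7 of the 9 fits that left out 1 library, and in 5 with scaling.

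Markers of other cell types moved as well. Of 20 measured neutrophil markers 1 was called, with and without scaling, against 2.11% of all genes called lower without and 0.584% with it. This was Cxcr2, the neutrophil chemokine receptor, at 11, 5, 3, 12 and 12 at 14 months, against 61, 34, 50 and 21 at 3 months (4.56-fold lower, limma adjusted p = 0.00627). The list's median log2 difference was -1.33 against -0.19 for all genes, or -1.16 against -0.02 after scaling. Its summed value was 2449 to 7093 at 14 months against 7373 to 19659 at 3 months. As a share of the library that was 0.487% to 1.62% at 14 months against 1.44% to 3.81% at 3 months, which overlap. S100a8, a calcium-binding protein abundant in neutrophils, was 2870, 1271, 1265, 2883 and 2822 at 14 months, against 6283, 4107, 9967 and 3691 at 3 months and did not pass (limma, adjusted p = 0.124). No neutrophil marker was at 0 in all 9 libraries.

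Border-associated macrophages, which lie along vessels and in the meninges, are marked by Mrc1 (the mannose receptor), at 63, 39, 49, 46 and 61 at 14 months, against 94, 81, 106 and 75 at 3 months. Mrc1 was 1.72-fold lower (limma, adjusted p = 0.00955, and 0.0384 after scaling). Of 16 measured markers of these cells 4 fell (Mrc1, Cbr2, Ccl24 and Maf), of which Mrc1 and Maf also after scaling, against 2.11% of all genes called lower without and 0.584% with it. Their median log2 difference was -0.69 against -0.19 for all genes, or -0.52 against -0.02 after scaling, and their summed value was 575 to 913 at 14 months against 985 to 1133 at 3 months. Without scaling Mrc1 and Maf were called in 8 of the 9 fits that left out 1 library, Ccl24 in 3 and Cbr2 in 2. With scaling Mrc1 was called in 3 of the 9, Maf in 2 and Ccl24 and Cbr2 in 0. Maf is also on the list of microglial identity transcription factors, and Ccl24 is on the cytokine list. T and NK cell markers went the other way. Of 4 measured, Ccl5 and Nkg7, a granule protein of cytotoxic cells, rose. Nkg7 was 58, 27, 76, 65 and 48 at 14 months, against 22, 14, 22 and 20 at 3 months (2.61-fold, limma adjusted p = 0.0247). Cd3g, a subunit of the CD3 complex, was 16, 5, 25, 21 and 4 at 14 months, against 3, 6, 8 and 7 at 3 months and did not pass (0.347). Il2rg, the common gamma chain of lymphoid cytokine receptors, is not on that list. It was 58, 39, 156, 96 and 65 at 14 months, against 18, 16, 23 and 18 at 3 months (3.83-fold, limma adjusted p = 0.00113). Cxcr6, the receptor for Cxcl16, is not on the list either. It was 10 to 32 at 14 months against 6 to 7 at 3 months (limma, adjusted p = 0.0498). Il2rg was called in all 9 fits without a library, Nkg7 in 4 and Cxcr6 in 2. The summed value of the 4 measured T and NK markers was 109 to 333 at 14 months against 48 to 57 at 3 months. That sum includes Ccl5, also on the cytokine list, at 70 to 223 at 14 months against 18 to 24 at 3 months. The part of neutrophils, border macrophages and T and NK cells in the other results was not tested.

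The marker sums of monocytes and macrophages, B cells, oligodendrocytes, astrocytes, endothelial cells, neurons, choroid plexus and erythroid cells overlapped between the ages. The single call among them without scaling was Ptgds, a prostaglandin D synthase of oligodendrocytes and meninges, at 38, 22, 19, 21 and 43 at 14 months, against 6, 7, 7 and 7 at 3 months (3.63-fold, limma adjusted p = 0.00401). Ttr, the transthyretin of the choroid plexus, was 1, 5, 0, 110 and 48 at 14 months, against 12, 38, 31 and 12 at 3 months, a wide spread in both groups.

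Large housekeeping groups had few calls. Among all genes 1.20% were called higher and 2.11% lower without scaling, and 2.16% and 0.584% with it. None of 79 cytosolic ribosomal proteins passed without scaling, with a median of 0.09, and 1 rose after it, with a median of 0.26. None of 82 respiratory chain genes and 44 proteasome genes passed either way. Of 56 lysosomal genes Arsb, an enzyme that degrades glycosaminoglycans, fell (31 to 40 at 14 months against 60 to 73 at 3 months, 1.88-fold lower, limma adjusted p = 0.00431), while the median of the list was -0.25. No heat shock gene was called among 43 without scaling, and Hspa1a rose after it.

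Immediate early genes were mixed. Of 32 measured, 4 rose (Mcl1, Plk2, Plk3 and Gadd45b) and 2 fell (Sgk1 and Cyr61), against 1.20% of all genes called higher and 2.11% called lower. After scaling 5 rose and 1 fell, against 2.16% and 0.584%. Leaving out 1 library at a time, Sgk1 was called in 8 of the 9 fits and Plk2 in 6, but Mcl1 and Cyr61 in 2 and Plk3 and Gadd45b in 1. With scaling Mcl1 was called in all 9, Plk2 in 8, Plk3 and Gadd45b in 3 and Sgk1 and Cyr61 in 1. Cyr61 (Ccn1), a matricellular protein, was 5, 6, 24, 4 and 5 at 14 months, against 30, 29, 30 and 27 at 3 months, with 1 of the 14-month libraries well above the others, and missed the threshold after scaling (limma, adjusted p = 0.0513). Fos, a subunit of AP-1, was 1587 to 2255 at 14 months against 1661 to 1840 at 3 months, with a log2 difference of -0.03 without scaling and 0.14 with it. Jun, another AP-1 subunit, was 429 to 521 at 14 months against 644 to 713 at 3 months and did not pass (limma, adjusted p = 0.0916). Egr1 and Klf2 overlapped between the ages. Of 14 glucocorticoid-responsive genes Mt1 and Cdkn1a rose and Sgk1 fell, against 1.20% of all genes called higher and 2.11% called lower. Tsc22d3, a canonical target, was not called (limma, adjusted p = 0.179).

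**Figure D4:**
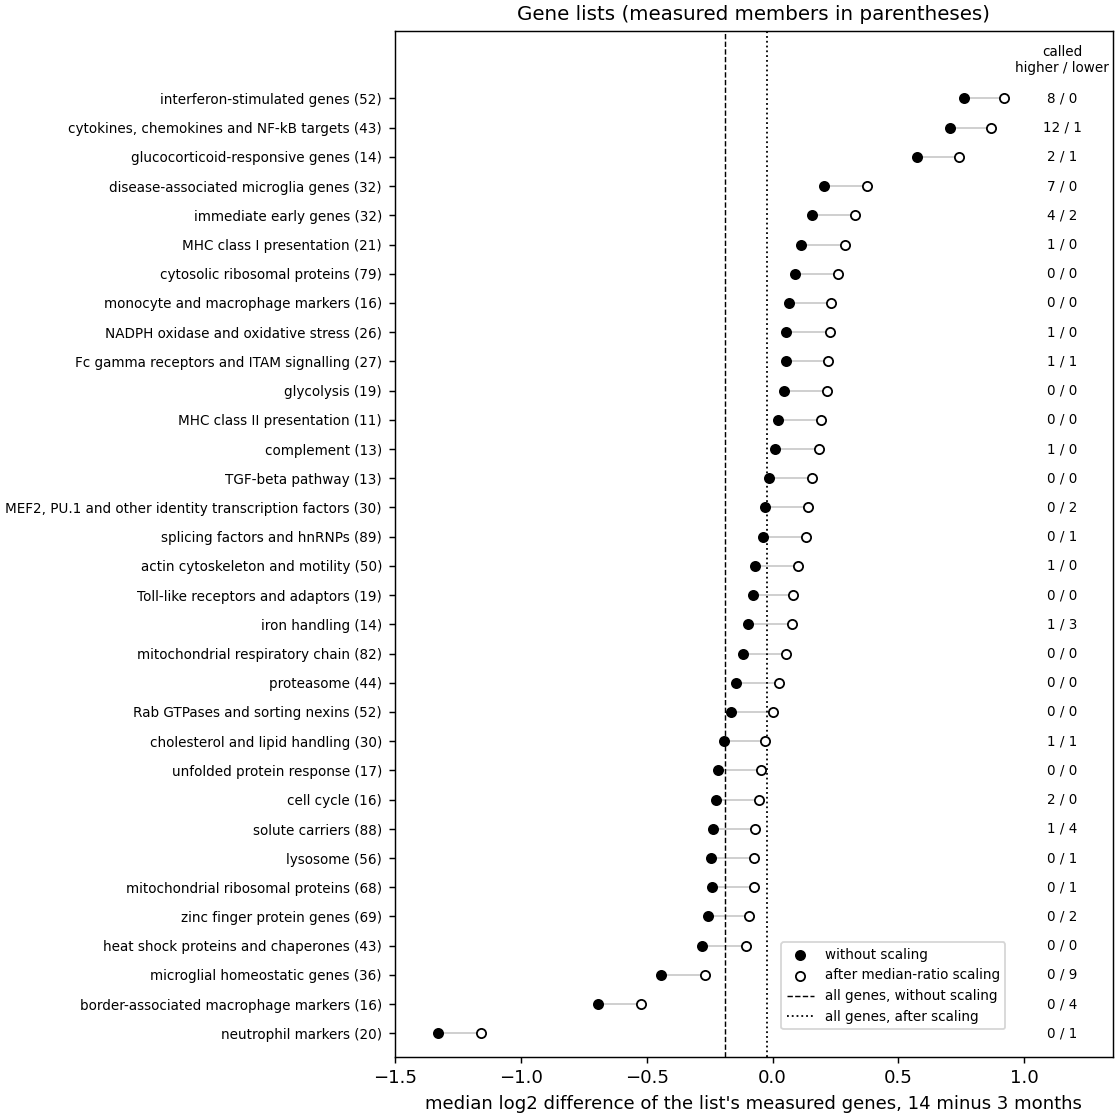
Median log2 difference (x axis, 14 minus 3 months) of the measured genes of each list with 10 or more measured members (rows), without scaling (filled) and after median-ratio scaling (open), with the members called higher and lower without scaling at the right and the medians of all genes as lines. The interferon list lies highest (0.76 and 0.92) and the neutrophil markers lowest (-1.33 and -1.16).

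The same ages were also available after LPS. In LPS-treated mice, 5 of 14 months and 3 of 3 months, 4 of 5647 genes (0.0708%) differed by limma, 1 (0.0177%) higher and 3 (0.0531%) lower at 14 months. After scaling 9 genes (0.159%) differed, 6 (0.106%) higher and 3 (0.0531%) lower. Mrc1 was among the 4 (40.6 ± 8.38 in 14-month and 92 ± 8.19 in 3-month LPS mice, mean ± SD; limma adjusted p = 0.0308), as were Cd36, a scavenger receptor, and Pf4, a chemokine, both lower, and Dpysl2, higher. Of the 68 genes that rose in PBS mice none was called in LPS mice, while 656 of all genes had an unadjusted p under 0.05 there and 43 of the 68 (63.2%) had a positive difference, compared with 42.7% of all genes. Their median log2 difference was 0.13 in LPS mice and 1.19 in PBS mice. Of the 33 genes that fell with and without scaling, 31 (93.9%) had a negative difference in LPS mice, compared with 57.3% of all genes, with a median of -0.42 in LPS mice and -1.03 in PBS mice. The LPS and PBS comparisons share no library. Both sets of genes were chosen by their difference in PBS mice, which by itself makes their PBS medians large. The sizes of the medians in LPS and PBS mice can therefore not be compared.

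The age difference itself differed between LPS and PBS mice for 17 genes (0.301%) in the interaction test of limma, with a positive interaction in 7 (0.124%) and a negative one in 10 (0.177%). After scaling there were 19 (0.336%), 2 (0.0354%) positive and 17 (0.301%) negative. Ccl5 averaged 180 ± 78.0 in 14-month and 188 ± 45.8 in 3-month LPS mice, and 155 ± 55.7 in 14-month and 20.5 ± 2.65 in 3-month PBS mice (SD). Its interaction was -2.91 ± 0.48 on the log2 scale (limma, adjusted p = 0.00391). Cd83 averaged 476 ± 109 in 14-month and 518 ± 21.9 in 3-month LPS mice (interaction -1.81 ± 0.33, limma adjusted p = 0.00776), and Id2 128 ± 22.8 and 152 ± 30.1 (-1.64 ± 0.25, 0.00391). Tnfsf9, Ifit2, Sdc4, Rcan1, Mt1, Plk2 and Cxcl2 had the same signs, a negative difference with age under LPS and a positive one under PBS. Jun, Stard3, Gna15, Aagab, Dpysl2 and Prelid1 had a positive difference under LPS and a negative one under PBS. Jun averaged 640 ± 241 in 14-month and 370 ± 32.0 in 3-month LPS mice (interaction 1.23 ± 0.25, limma adjusted p = 0.0254). Of these 6 only Stard3 and Gna15 passed after scaling, whereas all 10 with a negative interaction did.

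**Figure D5:**
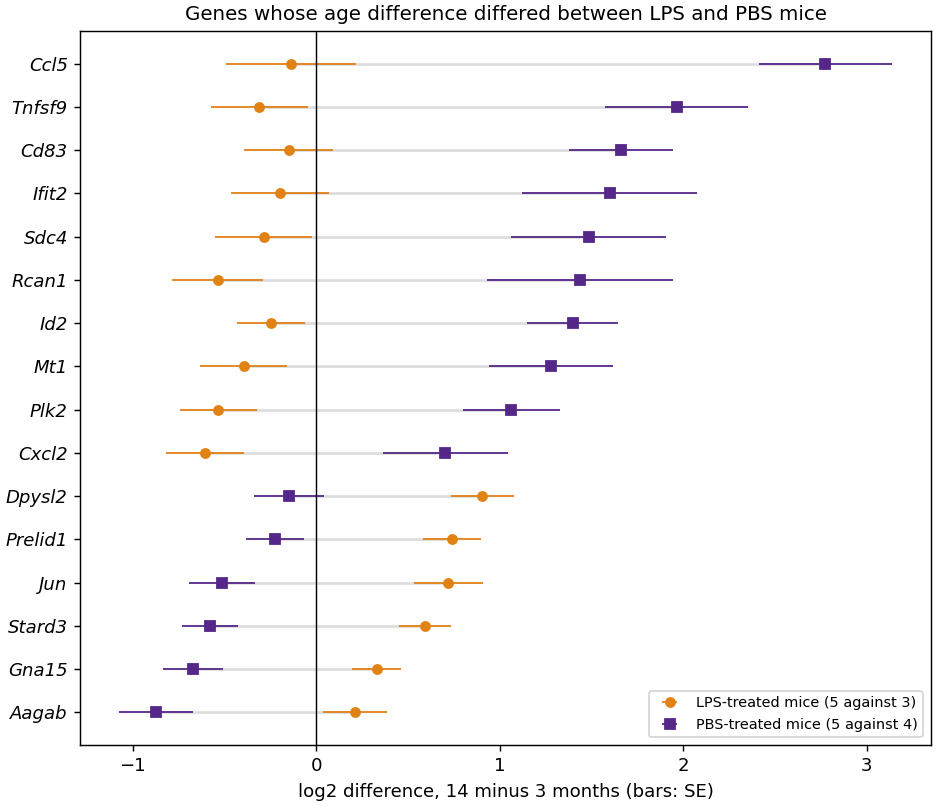
Log2 difference of 14 minus 3 months (x axis; bars are SE) in LPS-treated mice (orange circles, 5 against 3 libraries) and PBS-treated mice (purple squares, 5 against 4) for 16 genes (rows) whose age difference differed between the treatments. For Ccl5 the LPS value is -0.14 and the PBS value 2.77; the 6 genes at the bottom lie above 0 under LPS and below 0 under PBS.

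Set among the other female ages, the genes followed different courses. Spp1 averaged 17.8 ± 4.99 at 3 months (n = 4), 22.5 ± 0.707 at 6 months (n = 2), 65 ± 61.7 at 9 months (n = 3), 101 ± 31.2 at 12 months (n = 4), 236 ± 172 at 14 months (n = 5), 300 ± 226 at 16 months (n = 5) and 367 ± 70.3 at 24 months (n = 3; SD). Nkg7 averaged 19.5 ± 3.79 at 3 months, 13.5 ± 4.95 at 6 months, 11.7 ± 8.33 at 9 months, 27.8 ± 9.74 at 12 months, 54.8 ± 18.6 at 14 months, 60.6 ± 25.0 at 16 months and 128 ± 27.1 at 24 months. Both had their highest mean at 24 months. Il1b averaged 43.2 ± 11.4 at 3 months, 165.5 ± 19.1 at 6 months, 82 ± 23.3 at 9 months, 77.2 ± 15.6 at 12 months, 117 ± 21.0 at 14 months, 209 ± 107 at 16 months and 68 ± 4.36 at 24 months, with the highest of these means at 16 months and a 6-month mean above that of 14 months. The 6-month mean was also above that of 14 months for Ccl4 (547.5 ± 465 and 378 ± 179) and Ccl3 (295.5 ± 230 and 252 ± 102). The same held for Tnf (108 ± 43.8 and 76.8 ± 24.4) and Cd83 (603.5 ± 289 and 519 ± 213). It was below for Ccl5 (38.5 ± 9.19 and 155 ± 55.7) and Cxcl13 (1.1 ± 1.25 and 26.6 ± 29.1). The 6- and 14-month means were not tested against each other. P2ry13 averaged 1199 ± 45.2 at 3 months, 925 ± 177 at 6 months, 724 ± 149 at 9 months, 498 ± 89.0 at 12 months, 664 ± 146 at 14 months, 664 ± 236 at 16 months and 688 ± 98.5 at 24 months. Between 24 and 14 months 110 genes (1.95%) were called by limma without scaling, 103 (1.82%) higher and 7 (0.124%) lower at 24 months, and 0 after scaling, where 1003 had an unadjusted p under 0.05. None of Spp1, Nkg7, Il1b and P2ry13 was among the 110. The comparison of 24 with 14 months shares its 14-month libraries with the comparison of 14 with 3 months.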

How the data were processed

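RNA-seq was made from sorted microglia of single mice. Per the labels and the study's methods, the authors mapped reads with HISAT2 (2.0.4) and Bowtie2 (2.2.5) to mm10, estimated expression as FPKM with RSEM (1.2.12) and adjusted it for batch with ComBat-seq. The deposited table holds these batch-adjusted values, nearly all rounded to whole numbers, for 5647 genes and 64 libraries, and they were treated as a score, not as counts. Every gene has a mean of at least 10.0 over the libraries. The sources used here do not say which libraries formed a batch. Within-batch values could therefore not be computed, and depth is unknown.

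Values were tested as log2(value + 1) with limma (3.58.1, R 4.3.3, variance trend), fitted to 26 PBS libraries of 7 female age groups, so that all ages share one estimate of the spread. The contrast was 14 minus 3 months with Benjamini-Hochberg adjustment over 5647 genes, and a call needed an adjusted p below 0.05 with a fold above 1.5. LPS and interaction contrasts were fitted to 6 female PBS and LPS groups. Directions were checked after median-ratio scaling and after scaling to one total. Other pseudocounts (0.5 and 5), a mean of at least 50, other sample sets, variance settings, a replicate block and leaving out each library were also tried, and median-ratio scaling combined with the block or with a library left out was added after the data were seen.

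Named genes were the 10 largest changes in each direction among calls without overlap, up to 4 members of each list and fixed marker genes. A few genes are not reported here. Genes outside that rule were named after their values were seen. The members and the 42 gene lists were chosen with earlier results of these data known. The fit was tested on simulated data, where 80% of 100 genes changed by 1 on the log2 scale and 97% of 100 changed by 2 were called, with 9 of 5447 unchanged genes. The simulation gave each gene the same SD at every age and no shift of the median gene, unlike the data. Its rates therefore need not hold for this comparison.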

Additional observations from a re-analysis of the deposited data

Results flagged for a closer look

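In 17 of 180 groups of a gene and an age, 1 library stood apart from the others by Dixon's test, and chance flags about 1 in 20 groups. At 14 months these were Cyr61 at 24 in library 3, where the others were 4 to 6, and Zbp1 at 5 in library 2, where the others were 14 to 17. The 14-month groups also held Hnrnph3 at 16 in library 4, where the others were 24 to 28, and Sall1 at 22 in library 3, where the others were 72 to 106. Further 14-month cases were H2-D1 at 573 in library 2, where the others were 928 to 1090, and B2m at 5073 in library 3, where the others were 3744 to 3940. The last at this age were Cd74 at 3012 in library 1, where the others were 5757 to 5929, and Fos at 2255 in library 5, where the others were 1587 to 1657. At 3 months these were Cxcl13 at 2 in library 2, where the others were 0 to 0.1, and Ptgds at 6 in library 1, where the others were at 7. The 3-month groups also held Ifih1 at 6 in library 2, where the others were at 7, and C5ar1 at 166 in library 1, where the others were 134 to 137. Further 3-month cases were Siglech at 1061 in library 4, where the others were 920 to 940, and Zfp467 at 30 in library 3, where the others were at 31. The remaining cases were Il1rn at 2 in library 4, where the others were at 4, and Ifi204 at 14 in library 3, where the others were at 12. The last was Fos at 1661 in library 2, where the others were 1812 to 1840. Several of the 3-month cases are differences of 1 or 2 rounded units.

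The age difference differed between LPS and PBS mice in the interaction test of limma for 17 genes, of which 16 are given. The difference of the age differences, LPS minus PBS on the log2 scale, was negative for Ccl5 -2.91, Tnfsf9 -2.27, Rcan1 -1.97, Cd83 -1.81, Ifit2 -1.80, Sdc4 -1.77, Mt1 -1.68, Id2 -1.64, Plk2 -1.60 and Cxcl2 -1.31. It was positive for Jun 1.23, Stard3 1.17, Aagab 1.09, Dpysl2 1.06, Gna15 1.00 and Prelid1 0.97.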

How the results depend on the processing

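The called genes kept their direction under every alternative run, but their number did not stay fixed. Against 187 (68 higher, 119 lower), the calls were 155 (122 higher, 33 lower) after median-ratio scaling, 139 (106 higher, 33 lower) after scaling to one total, 120 (40 higher, 80 lower) among 1515 genes with a mean of at least 50, 454 (149 higher, 305 lower) with the 2 ages fitted alone, and 642 (207 higher, 435 lower) at an unadjusted p. Leaving out 1 library gave 57 to 222 calls (23 to 74 higher, 34 to 158 lower), with 57 to 63 where a 3-month library was left out. With median-ratio scaling, leaving out 3-month library 1 to 4 in turn gave 74 (62 and 12), 50 (42 and 8), 92 (75 and 17) and 71 (58 and 13), and leaving out 14-month library 1 to 5 gave 127 (100 and 27), 158 (126 and 32), 135 (106 and 29), 101 (83 and 18) and 138 (105 and 33). Deviations of libraries with the same title number correlated at -0.17 to 0.21, above 0.1 in 3 of 4 pairs. Of the 4 3-month libraries, 3 correlated best with their own title number, a hint from the data only. The deposited column headers number the 14-month libraries differently. Pairs matched by header correlated at -0.01, -0.13 and 0.06. Not every pair passed 0.1, so the numbers were not taken as pairs. With the replicate block, which used the title numbers, the calls were 141 (45 higher, 96 lower), and 125 (102 higher, 23 lower) with scaling as well. The other settings stayed within 1.5 times. In LPS mice scaling gave 9 calls against 4, and between 24 and 14 months 0 against 110. The cause of these shifts was not tested. Depth is unknown, values under about 10 rest on a few rounded units, and the batches behind the adjustment are not known here.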

Other observations

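Iron handling genes moved in both directions. Of 14 measured, Fth1 rose and 3 fell without scaling, against 1.20% of all genes called higher and 2.11% called lower, and none of the 3 was called after it. Of the 9 fits that left out 1 library, Fth1 was called in 8, Slc40a1 in 5, Slc25a37 in 4 and Ncoa4 in 3. With scaling Fth1 was called in all 9, Slc40a1 in 1 and Slc25a37 and Ncoa4 in 0. Slc40a1 (ferroportin), the iron exporter, was 42 to 114 at 14 months against 118 to 149 at 3 months (limma, adjusted p = 0.0221 without and 0.0702 with scaling). Ncoa4, the receptor that delivers ferritin to lysosomes, was 45 to 79 at 14 months against 103 to 114 at 3 months (0.0359 and 0.103), and Slc25a37 (mitoferrin), a mitochondrial iron importer, 7 to 13 at 14 months against 17 to 22 at 3 months (0.0266 and 0.0745). Among other groups, Txnrd1, a thioredoxin reductase, was 11 to 23 at 14 months against 6 to 8 at 3 months and rose with and without scaling (limma, adjusted p = 0.0358 without), as did Slc39a1, a zinc importer (193 to 358 at 14 months against 141 to 158 at 3 months, 0.0477), and Plaur, the urokinase receptor (46 to 74 at 14 months against 19 to 29 at 3 months, 0.0179). Plaur was called in 7 of the 9 fits without scaling, Txnrd1 and Slc39a1 in 2.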
